A study of Mus musculus with 12 samples.

Results

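The 36 genes described here encode the steps by which muscle takes up fatty acids, carries them into mitochondria, oxidises them there and chooses between fat and glucose as fuel, together with PPAR receptors and several of their targets. They were chosen as a list and matched by symbol, 1 identifier each, to a table of 47643 gene identifiers. At least 1 read was counted for 35 of the 36, and 34 were among the 6676 genes with enough reads to be tested. The reads were counted at the 3' ends of mRNA from the gastrocnemius, a calf muscle, of 6 female C57BL/6J mice aged 11 weeks. In 3 mice, labelled Myc, c-myc was over-expressed, and 3 mice labelled control were of the same strain, sex and age. Each mouse gave an uncontracted left lower leg and a right lower leg subjected to acute high-intensity contraction, so that 12 libraries formed 4 groups of 3. The means and cells of Myc over-expression, the time between contraction and sampling, and what the control animals or legs received are not given in the sources used here. Contraction and body side cannot be told apart in this design. The p-values measure the spread between these 3 animals a group.

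Long-chain fatty acids reach a muscle fibre after lipoprotein lipase frees them from circulating triglyceride, and they are bound, activated to acyl-CoA and passed through the carnitine shuttle into the mitochondrial matrix. There the beta oxidation cycle shortens them by repeated dehydrogenation, hydration, a second oxidation and thiolysis, and hands electrons to the electron transfer flavoprotein. PPAR alpha and PPAR delta are nuclear receptors that sense fatty acids and raise transcription of many of these genes, often together with the coactivator encoded by Ppargc1a.

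The libraries held 1371732 to 1643216 counts. After scaling, 1 read was worth 0.601 to 0.774 CPM (counts per 1000000 of the scaled library total), the unit of every level given here. Of the 8 markers of skeletal muscle examined, all were tested and none passed with contraction averaged over genotypes, and they summed to 105500 to 141500 CPM. Myc reads in the uncontracted legs numbered 0, 1 and 0 in the libraries labelled control 1, 2 and 3 and 11, 9 and 9 in those labelled Myc. In the contracted legs they numbered 1, 10 and 59 in the libraries labelled control and 32, 0 and 2 in those labelled Myc, so 4 contracted libraries, number 2 and number 3 of either genotype, go against their labels. Genotypes are given as labelled throughout, and the contraction calls of members and further pathway genes are also given without these 4 doubtful libraries. That setting leaves 1 contracted library of each genotype, which is assumed to vary like the uncontracted groups, since these alone then give the spread. Marker genes, spreads and correlations are given with all libraries only. The pairing of legs within animals 2 and 3 rests on the same labels. Averaged over genotypes, contraction sets the 6 contracted against the 6 uncontracted libraries, but its spread was taken within the 4 labelled groups, so that the labels enter its p-values.

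Averaged over genotypes, Angptl4, an inhibitor of lipoprotein lipase, rose 4.10-fold, while Ucp3, a mitochondrial uncoupling protein, and Pdk2, a kinase that switches off pyruvate dehydrogenase, fell to 0.549-fold and 0.796-fold. These 3 of 34 members (8.82%) are near the 7.47% of all tested genes that passed in either direction, 5.71% that rose and 1.77% that fell (edgeR quasi-likelihood test, Benjamini-Hochberg adjusted p under 0.05). DESeq2 also called 3 members, beside 386 of all genes, and 6 members had an unadjusted p under 0.05 beside 1346 of the 6676 genes tested. Without the 4 doubtful libraries 1 member passed, Ucp3. The 95% interval of the fold change lay within 1.5-fold either way for 27 of the 34 and within 2-fold for 30, the exceptions to the wider bound being Etfdh, Pdk4, Angptl4 and Ucp3. The members' median log2 change was -0.07 beside -0.0033 over all genes tested, and 22 of 34 were below 0 beside 50.4% of all genes.

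**Figure D1:**
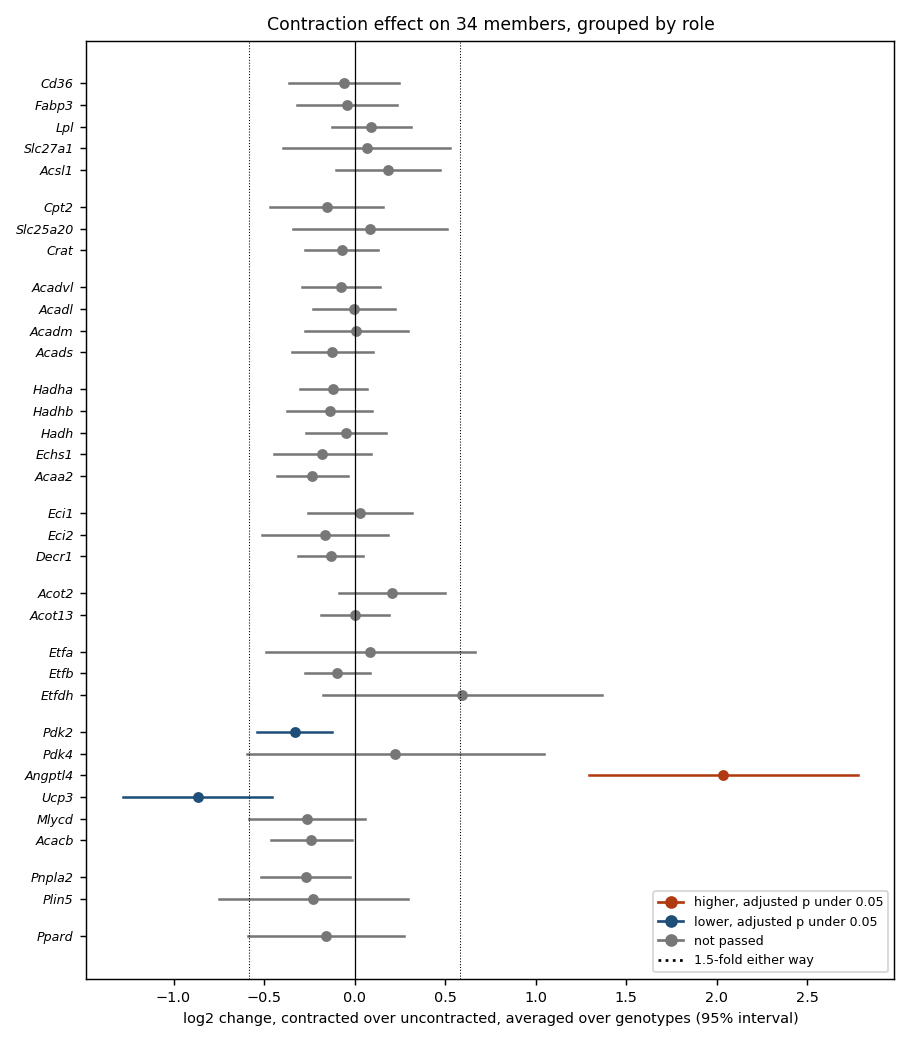
Log2 change with contraction averaged over genotypes (x axis, contracted over uncontracted, all 12 libraries) for the 34 tested members in the order of their roles, with points for the estimate and bars for its 95% interval. Angptl4 stands at 2.04, Ucp3 at -0.87 and Pdk2 at -0.33, and most other intervals lie inside the dotted lines at 1.5-fold.

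In the legs labelled control alone, 0 of 34 members passed beside 2.8% of all tested genes. An unadjusted p under 0.05 was found for 4 members and for 858 of all genes, and DESeq2 called 0 members and 157 genes. In the legs labelled Myc, 2 of 34 rose, Angptl4 and Acot2, and 0 fell, beside 3.89% of all tested genes that passed and 3.45% that rose. There, 7 members had an unadjusted p under 0.05 beside 1066 of all genes, and DESeq2 called 1 member, Angptl4, beside 213 genes. Without the 4 doubtful libraries, with 1 contracted library against 3 in each genotype, 0 members passed in either. The contracted and uncontracted groups did not overlap for 5 members in the control legs, 14.7% of those tested beside 16.8% of all genes, and for 6 in the Myc legs, 17.6% beside 19.5%. Over all 6 against 6 libraries 1 member, Angptl4, did not overlap, which is 2.94% of the members beside 3.82% of all genes. By the count of separated groups the members thus sat near the background.

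Angptl4 encodes a secreted protein, made in muscle and fat, that inactivates lipoprotein lipase and so limits fatty acid uptake from circulating triglyceride. It is a PPAR target and lies at chr17:33773750-33781830 on the minus strand (GRCm38). In the uncontracted control legs it was at 1.91, 3.36 and 3.67 CPM, and in the contracted control legs at 7.0, 14.5 and 6.48 CPM. In the uncontracted Myc legs it was at 1.26, 5.02 and 3.10 CPM, and in the contracted Myc legs at 8.97, 17 and 25.9 CPM. Every contracted library lay above every uncontracted one, and the contracted leg was higher in 6 of 6 animals, by 1.76 to 8.36 times. The reads behind these levels were few, 2 to 8 in the uncontracted and 10 to 43 in the contracted libraries, so that Angptl4 entered the test through the legs in which it was high.

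Averaged over genotypes the log2 change of Angptl4 was 2.04 ± 0.36 (SE, 6 against 6 libraries, edgeR adjusted p = 0.000551), with a 95% interval of the fold of 2.45 to 6.86. In the Myc legs it was 2.45 ± 0.47 (adjusted p = 0.00251), and in the control legs 1.62 ± 0.53, which did not pass (adjusted p = 0.134). The difference between the genotypes was 0.83 ± 0.78 and did not pass (adjusted p = 0.97). Without the 4 libraries whose Myc reads go against their labels, the averaged change was 1.36 and no longer passed (adjusted p = 0.398), and that of the Myc legs was 1.51 (adjusted p = 0.821). With no low-count filter the averaged change was 2.03 (adjusted p = 1.59e-09), and the control legs passed as well at 1.62 (adjusted p = 0.0194). That setting uses the same reads of Angptl4 and adds genes with almost none to the fit, so its smaller adjusted p is no further support. Leaving out any 1 library kept the averaged change at 1.80 to 2.32 with adjusted p of at most 0.00446.

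Ucp3 encodes an inner mitochondrial membrane carrier of skeletal muscle that is known for rising with fatty acid supply, and it is a PPAR target at chr7:100472990-100486432 on the plus strand. In the uncontracted control legs it was at 23.6, 59.2 and 50.2 CPM, and in the contracted control legs at 14.7, 33.6 and 20.7 CPM. In the uncontracted Myc legs it was at 47.9, 53.4 and 63.5 CPM, and in the contracted Myc legs at 26.9, 31.5 and 35.5 CPM. The contracted leg was lower in 6 of 6 animals, at 0.413 to 0.624 of the uncontracted leg. The Myc groups did not overlap, whereas in the controls the low uncontracted leg of animal 1 lay within the range of the contracted legs.

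The averaged log2 change of Ucp3 was -0.87 ± 0.20 (SE, edgeR adjusted p = 0.00682), a fold of 0.549 with a 95% interval of 0.412 to 0.730. It was -0.94 ± 0.29 in the control legs (adjusted p = 0.104) and -0.80 ± 0.27 in the Myc legs (adjusted p = 0.113), and neither passed alone. With the animal as a fixed block, since the titles pair the legs, both passed, at -0.94 in the control legs (adjusted p = 0.0116) and at -0.81 in the Myc legs (adjusted p = 0.0143). With the animal as a random block neither did (adjusted p = 0.192 and 0.147). Without the 4 doubtful libraries the averaged change was -1.30, from 1 contracted library of each genotype. These came from the animals numbered 1, whose legs were the lowest of their groups, at 14.7 and 26.9 CPM when contracted. Against their own uncontracted legs they stood at 0.624 (control) and 0.562 (Myc), so -1.30 is not the fall within those animals. Leaving out single libraries gave changes of -1.31 to -0.69 in the control legs with adjusted p of 0.00726 to 0.396. Ucp3 passed there without the uncontracted library labelled control 1 (-1.25) or the contracted library labelled control 2 (-1.31, adjusted p = 0.0331), and in no other such case. The difference between the genotypes was 0.14 ± 0.40 (adjusted p = 0.99).

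Pdk2 encodes a pyruvate dehydrogenase kinase, which phosphorylates and inactivates the complex that commits glucose carbon to mitochondrial oxidation, and lies at chr11:95026258-95041354 on the minus strand. It held the most reads of all members, 19095 over the 12 libraries. In the uncontracted control legs it was at 1341, 1114 and 999.5 CPM, and in the contracted control legs at 1143, 898 and 795.5 CPM. In the uncontracted Myc legs it was at 1064, 1210 and 1227 CPM, and in the contracted Myc legs at 954, 889 and 856 CPM. The contracted leg was lower in 6 of 6 animals, at 0.698 to 0.897 of the uncontracted leg. The Myc groups did not overlap, and the control groups did. The averaged log2 change was -0.33 ± 0.10 (SE, edgeR adjusted p = 0.0466), close to the threshold.

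For Pdk2 neither genotype passed alone, with -0.28 ± 0.14 in the control legs (adjusted p = 0.405) and -0.38 ± 0.14 in the Myc legs (adjusted p = 0.17). Its log2 difference, Myc over control, was 0.02 ± 0.14 in the uncontracted and -0.07 ± 0.14 in the contracted legs, and neither passed. Leaving out single libraries gave averaged changes of -0.43 to -0.27 with adjusted p of 0.00418 to 0.144, and the call was lost for 8 of the 12 libraries. Without the 4 doubtful libraries the averaged change was -0.15 (adjusted p = 0.898).

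**Figure D2:**
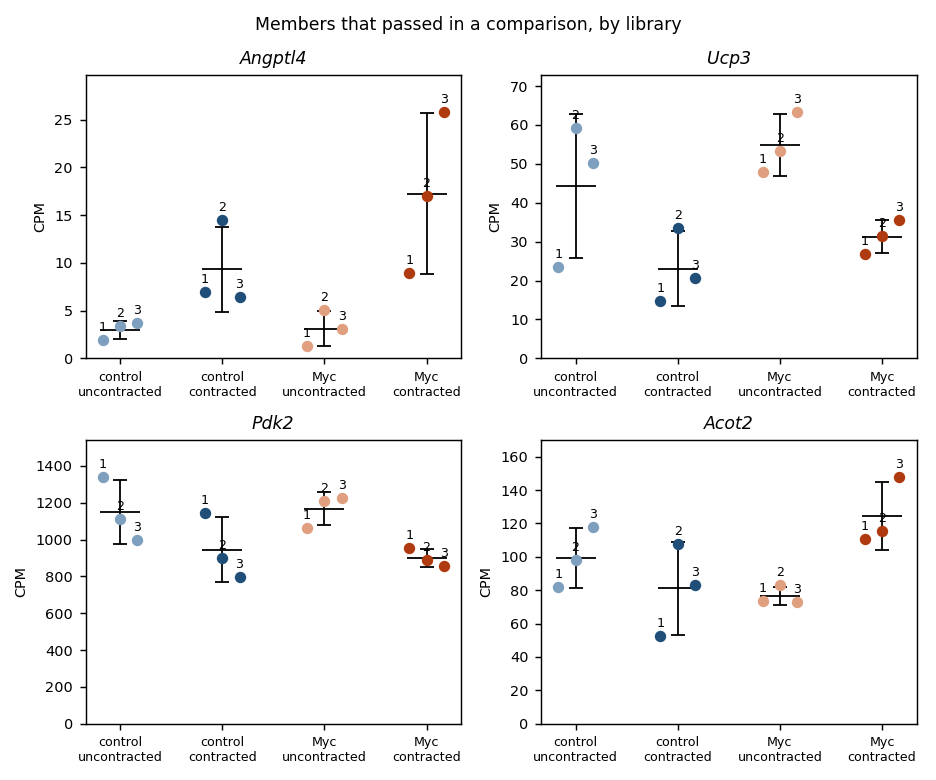
Levels of Angptl4, Ucp3, Pdk2 and Acot2 in CPM (y axis, from 0) in the 3 libraries of each group (points, numbered by animal), with the group mean as a line and bars of 1 SD. Contracted libraries are higher for Angptl4 and mostly lower for Ucp3 and Pdk2, and Acot2 is higher in the contracted libraries labelled Myc, at 110 to 148 CPM against 72.7 to 82.9 CPM in the uncontracted ones.

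For Ucp3 and Pdk2, which each fell in the averaged comparison, the reference sequence before their starts is shown. RefSeq promoter windows (GRCm38.p6), each holding 250 bases before and 50 bases after a gene's start, were found for 29 of the 36 members, as 34 windows. The 250 bases before the start are printed 5' to 3' on the gene's strand, for Ucp3 at chr7:100472741-100472990 and for Pdk2 at chr11:95041372-95041621, with capitals marking the nuclear receptor half-site AGGTCA in Ucp3 and the E-box CACGTG, the preferred letters of Myc with its partner Max, in Pdk2.
Ucp3: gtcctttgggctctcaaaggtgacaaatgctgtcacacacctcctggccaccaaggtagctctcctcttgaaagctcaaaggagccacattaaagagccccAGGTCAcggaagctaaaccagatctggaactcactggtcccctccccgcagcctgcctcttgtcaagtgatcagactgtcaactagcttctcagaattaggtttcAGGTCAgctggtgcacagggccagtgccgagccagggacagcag
Pdk2: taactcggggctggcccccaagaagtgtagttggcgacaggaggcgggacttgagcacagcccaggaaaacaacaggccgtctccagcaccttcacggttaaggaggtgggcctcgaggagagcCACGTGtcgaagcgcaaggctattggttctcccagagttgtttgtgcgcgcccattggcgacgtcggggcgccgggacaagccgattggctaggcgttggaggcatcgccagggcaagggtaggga
In Ucp3 the half-sites begin 149 and 44 bases before the start, and in Pdk2 the E-box begins 126 bases before it. Pdk2 has another window in the table, before a start downstream of this one (chr11:95040876-95041125), without an E-box. Searched on both strands, AGGTCA was in 16.3% of all 32851 windows and in 8 of the 34 member windows (23.5%), those of Acacb, Acadm, Acadvl, Cd36, Echs1, Plin5 and Ucp3. The E-box was in 7.15% of all windows and in 2 of the 34 member windows (5.88%), those of Pdk2 and Slc27a1. The longer form bound by PPAR with its partner RXR, AGGTCANAGGTCA, which contains AGGTCA, was in 0.04% of all windows and in none of the members', and the same was true of TCAAGGTCA (0.423%) and TNAAGGTCA (1.28%). Such matches are letters in a window and not measured binding.

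Pdk4, the other pyruvate dehydrogenase kinase among the members and a PPAR target, was named after its values were seen. It was at 2.55, 10.8 and 6.73 CPM in the uncontracted and 0.700, 11.2 and 3.24 CPM in the contracted control legs. In the uncontracted Myc legs it was at 6.93, 6.91 and 5.42 CPM, and in the contracted ones at 6.90, 15.8 and 11.4 CPM. The groups overlapped in both genotypes, and control animal 1 was the lowest of its group in each leg. The same held for Ucp3, Plin5 and several other members, Lpl, Acsl1, Acadl and Acot2 among them. The averaged log2 change was 0.23, with an interval of -0.60 to 1.05 (edgeR adjusted p = 0.813), and it rests on 138 reads in all.

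The malonyl-CoA pair sets the brake on mitochondrial entry: Acacb makes malonyl-CoA, which blocks carnitine palmitoyltransferase 1, and Mlycd removes it. Neither passed, and Mlycd was named after its values were seen. Acacb was at 92.6, 120 and 136 CPM (lowest, median and highest) over the 6 uncontracted legs and at 80.3, 95.6 and 120 CPM over the contracted ones, an averaged log2 change of -0.24 ± 0.11 (edgeR adjusted p = 0.211). In the control legs the groups of each gene did not overlap, with changes of -0.41 for Acacb (adjusted p = 0.21) and -0.53 for Mlycd (adjusted p = 0.275). In the Myc legs they overlapped, with changes of -0.07 and 0.01.

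The thioesterase Acot2 splits long-chain acyl-CoA inside mitochondria, and Acot13 is a smaller thioesterase associated with mitochondria. Acot2, at chr12:83987861-83993873 on the plus strand, was at 82.1, 98.2 and 118 CPM in the uncontracted and 52.5, 108 and 82.9 CPM in the contracted control legs. In the uncontracted Myc legs it was at 73.7, 82.9 and 72.7 CPM, and in the contracted ones at 110, 115 and 148 CPM. The Myc groups did not overlap and the control groups did. Acot2 rose by 0.70 ± 0.20 on the log2 scale in the Myc legs (edgeR adjusted p = 0.0494), and its change in the control legs was -0.29 ± 0.20 (adjusted p = 0.575). The difference between these, 0.995 ± 0.28, had an unadjusted p of 0.00195 but did not pass over all genes (adjusted p = 0.855).

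The Acot2 call was not firm. In the Myc legs its adjusted p was 0.0519 with DESeq2, 0.0861 with library totals alone, 0.0688 with the animal as a random block, 0.0319 with it as a fixed block and 0.0132 to 0.27 when single libraries were left out, which ended the call for 7 of the 12. Without the 4 doubtful libraries the change was 0.54 (adjusted p = 0.675) in the Myc legs and -0.93 (adjusted p = 0.0814) in the control legs. Its close paralogue Acot1 held 15 reads in all libraries together against 1774 for Acot2, and how reads that fit both were counted is not given in the sources used here. Acot13 was at 178, 215 and 248 CPM in the uncontracted and 186, 217 and 243 CPM in the contracted legs (lowest, median and highest), an averaged change of 0.00 with an interval of -0.18 to 0.19.

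Of the 5 genes of uptake and activation, 0 passed with contraction, and their averaged changes ran from -0.06 to 0.18 with a median of 0.07. Lpl, lipoprotein lipase itself, was at 360, 432 and 568 CPM in the uncontracted and 371, 486 and 546 CPM in the contracted legs (lowest, median and highest). Its averaged change was 0.09 ± 0.10, with an interval of the fold of 0.918 to 1.24 (edgeR adjusted p = 0.69). Fabp3, the heart and muscle fatty acid binding protein, was at 422.5, 557 and 718 CPM and 385, 539 and 681 CPM in the same order, a change of -0.04 ± 0.13 (adjusted p = 0.907). The remaining 3 were Cd36, a fatty acid receptor and transporter, Slc27a1, a transport protein with acyl-CoA synthetase activity, and Acsl1, the main long-chain acyl-CoA synthetase of muscle. Their averaged changes were -0.06, 0.07 and 0.18.

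The carnitine shuttle could be followed for 3 of its 4 members. Crat, carnitine acetyltransferase, had an averaged change of -0.07 ± 0.10 and Cpt2, which rebuilds acyl-CoA in the matrix, one of -0.15 ± 0.15, and neither passed (edgeR adjusted p = 0.753 and 0.627). Slc25a20, the carrier that exchanges acylcarnitine for carnitine, was at 0.08 ± 0.20 (adjusted p = 0.873). Cpt1b, the muscle form of the enzyme that malonyl-CoA inhibits, held 0 reads in all 12 libraries, which allows up to 3 reads or 1.80 to 2.32 CPM by counting error alone. The gene annotation (GENCODE M21, GRCm38) places Cpt1b at chr15:89416405-89425863, where a readthrough gene model on the same strand, Gm44502, shares 81.4% of its exon bases and all of the last 500. Gm44502 was not in the table, and its part in the count of 0 was not tested.

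The 12 enzymes of the beta oxidation cycle, the 4 acyl-CoA dehydrogenases, the 5 enzymes of hydration, second oxidation and thiolysis, and the 3 auxiliary enzymes for unsaturated chains, had averaged log2 changes of -0.23 to 0.03 with a median of -0.12. Their 95% intervals spanned -0.51 to 0.32. Of the 12, 0 passed, the smallest adjusted p being 0.163 (edgeR), and beside 7.47% of all tested genes so small a list would hold few calls in any case. In the control legs their changes ran from -0.29 to 0.10 and in the Myc legs from -0.35 to 0.05. The summed level of the 12 was 1132 to 1312 CPM in the uncontracted and 997 to 1173 CPM in the contracted legs, so the ranges overlapped. Within it, the 5 enzymes of hydration, second oxidation and thiolysis summed to 528.9 to 617 CPM in the uncontracted legs. In the contracted legs they summed to 465 to 527.1 CPM, so the ranges were narrowly apart. None of the 5 enzymes separated alone over all libraries. The sums of the dehydrogenases (409 to 503.5 against 355 to 477 CPM) and of the auxiliary enzymes (178 to 204 against 162 to 186 CPM) overlapped. How often sums of other genes separate was not computed.

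Among the dehydrogenases, which act on chains of different length, Acads (short chains) was at 154, 165 and 196 CPM in the uncontracted and 110, 159 and 192 CPM in the contracted legs (lowest, median and highest), an averaged change of -0.12 ± 0.11. Acadvl (very long chains) was at -0.08 ± 0.10, and its exons overlap those of Dvl2 on the opposite strand over 42.9% of their length, with 114 reads counted for Dvl2. Since no strand setting is stated, reads of such overlapping genes cannot be told apart. Acadl (long chains) was at 0.00 and Acadm (medium chains) at 0.01.

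Hadha and Hadhb encode the subunits of the membrane-bound trifunctional protein, which carries out the last steps of the cycle on long chains. Hadha was at 216, 232 and 256 CPM in the uncontracted and 189, 218 and 238 CPM in the contracted legs (lowest, median and highest), an averaged change of -0.12 ± 0.09, and that of Hadhb was -0.14 ± 0.11. Acaa2, the matrix thiolase, was at 141, 156 and 174.5 CPM and 111, 133 and 148.5 CPM in the same order. At -0.23 ± 0.09 it had the lowest averaged change of the cycle enzymes, and it did not pass (edgeR adjusted p = 0.163). Echs1, the matrix hydratase, and Hadh, the matrix hydroxyacyl-CoA dehydrogenase, were at -0.18 and -0.05. All 5 averaged changes of this step were below 0, and none passed.

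Eci1, Eci2 and Decr1 rearrange double bonds so that unsaturated chains can enter the cycle. Decr1 had the lowest SD within groups of all tested members. It was at 125, 135 and 144 CPM in the uncontracted and 113, 124 and 129 CPM in the contracted legs, and its averaged change was -0.13 ± 0.09 (edgeR adjusted p = 0.426). The contracted control legs of Decr1 all lay below the uncontracted ones, as did those of Echs1, and the Myc legs overlapped for both. The averaged changes of Eci1 and Eci2 were 0.03 and -0.16.

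The electron transfer flavoprotein, made of the products of Etfa and Etfb, passes electrons from the dehydrogenases to Etfdh and on to ubiquinone. Etfb was at 396, 436 and 501.5 CPM in the uncontracted and 361.5, 412 and 484 CPM in the contracted legs, a change of -0.10 ± 0.09 (edgeR adjusted p = 0.599). Etfa and Etfdh held 179 and 96 reads in all, and their averaged changes of 0.09 and 0.60 had intervals of -0.49 to 0.66 and -0.17 to 1.37. At that depth a change of 1.5-fold could not be told from none for these partners of Etfb.

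Lipid droplets supply fatty acids from within the fibre. Pnpla2, adipose triglyceride lipase, was at 104, 121 and 164 CPM in the uncontracted and 82.5, 108 and 125 CPM in the contracted legs, an averaged change of -0.27 ± 0.12 that did not pass (edgeR adjusted p = 0.196). Plin5, a coat protein that ties droplets to mitochondria, was at 19.7, 37.9 and 76.6 CPM and 18.2, 41.5 and 63.1 CPM, a change of -0.23 ± 0.25 (adjusted p = 0.685). Of the receptors, Ppard was at 11.9, 14.7 and 18.9 CPM and 9.66, 12.8 and 20.4 CPM, a change of -0.16 ± 0.21 (adjusted p = 0.742). Ppara held 82 reads in all and was not tested, with 1.55 to 6.36 CPM in the uncontracted and 0.700 to 6.67 CPM in the contracted legs.

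The contraction changes of the members were then set side by side in the 2 genotypes. The interaction, the difference between the contraction effects of the Myc and the control legs, passed for 0 of 34 members and for 0.0% of all genes (edgeR), with 1 member, Acot2, and 331 genes at an unadjusted p under 0.05, and DESeq2 called 0 of either. For 11 of the 34 the interval of that difference lay within 1.5-fold and for 24 within 2-fold. The largest differences beside that of Acot2 were 1.19 ± 0.78 for Pdk4 and -1.04 ± 0.56 for Etfa, both of which rest on few reads. Beside Acot2, Pdk4 and Etfa, the interval reached past 2-fold for Slc27a1, Slc25a20, Etfdh, Angptl4, Mlycd, Plin5 and Ppard.

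**Figure D3:**
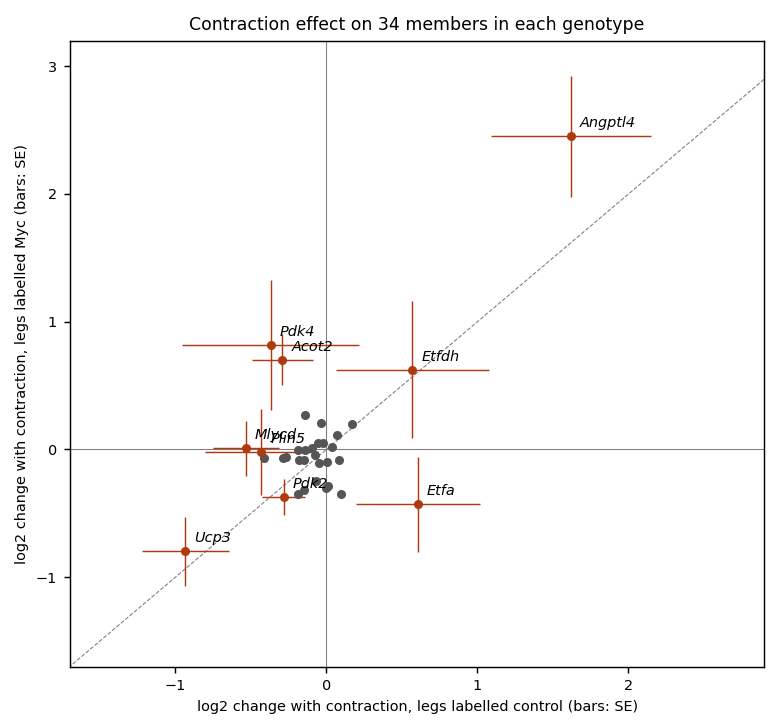
Log2 change with contraction in the legs labelled control (x axis) and in those labelled Myc (y axis) for the 34 tested members, with bars of 1 SE for named members and a dashed line of equal change. Most members lie near 0, Ucp3 lies near the line, and Acot2 stands off it at -0.29 and 0.70, as do Angptl4, Pdk4 and Etfa, which have few reads.

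Between the genotypes, 0 of 34 members passed in the uncontracted legs and 0 in the contracted legs (edgeR), and 0.0% of all tested genes did in either. In the uncontracted legs 2 members, Etfa and Acot13, had an unadjusted p under 0.05 beside 421 of all genes, and DESeq2 called 0 members and 1 gene. In the contracted legs 4 members, Acot2, Pdk4, Angptl4 and Plin5, did so beside 205 genes, and DESeq2 called 0. The members' median log2 difference, Myc over control, was 0.07 in the uncontracted and 0.11 in the contracted legs, where the genotype labels of 4 of the 6 libraries are in doubt. The intervals lay within 1.5-fold for 19 members in the uncontracted and 21 in the contracted legs.

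Some members varied between libraries of a group by more than counting reads could give. The SD within groups was taken on log2 CPM after adding 0.65 CPM, and the counting error without that addition. For Fabp3 the SD was 0.310, 6.13 times the counting error of 0.0506. For Pdk2 it was 0.184 or 5.05 times, and for Lpl 0.202 or 3.65 times. Plin5 varied with an SD of 0.632, 3.14 times its counting error, and Ucp3 with 0.475, 2.29 times. Decr1 and Hadh, at 0.0723 and 0.143, varied no more than counting alone gives, and the same held for Cpt2. Slc27a1 stood at 0.994 times its counting error. Angptl4 had an SD of 0.651 beside a counting error of 0.583. At its low levels the added 0.65 CPM shrinks the SD, so its scatter cannot be said to equal what its few reads bring.

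**Figure D4:**
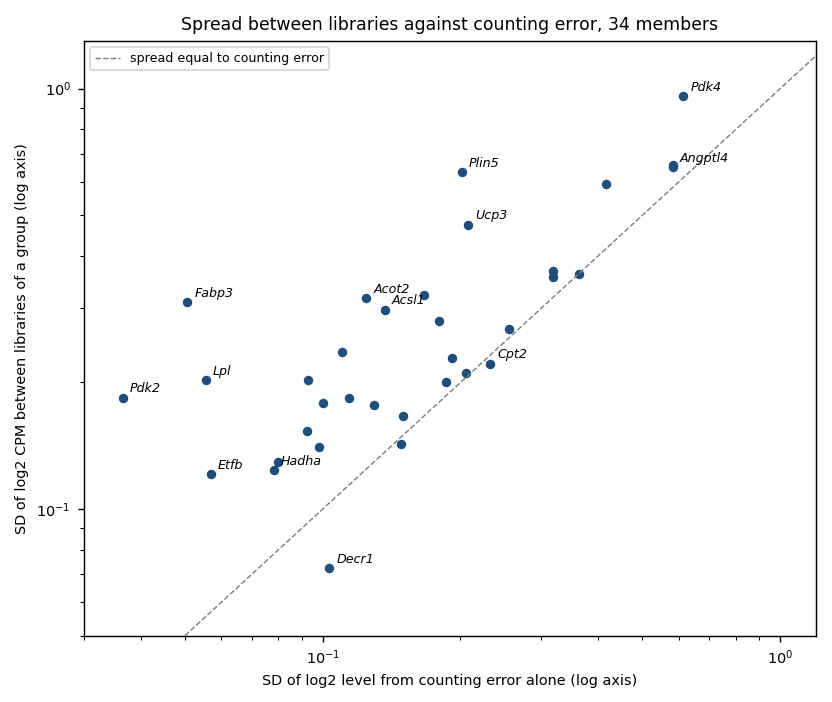
SD of log2 CPM, with 0.65 CPM added, between the libraries of a group, pooled over the 4 groups (y axis, log scale). It is set against the SD that counting error alone gives, with nothing added (x axis, log scale), for the 34 tested members. Points on the dashed line vary as counting alone would have it, and Fabp3, Pdk2, Lpl and Plin5 lie well above it.

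Deviations from the group means were compared between the 30 members with at least 200 reads, which made 435 pairs over the same 12 libraries and therefore share depth and composition. The median Pearson r was 0.209, with a range of -0.81 to 0.89. The highest was 0.885 between Pnpla2 and Acads (Spearman's rho 0.902), which was 0.759 without the 2 libraries farthest from the median. Plin5 and Lpl followed at 0.878 (rho 0.811, and 0.881 without 2 libraries), and Hadhb and Acadm at 0.849. Ucp3 and Pdk2, which each fell with contraction, were at -0.607 (rho -0.48, and -0.496 without 2 libraries). These values describe the libraries and carry no test.

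Beyond the members, 136 further genes of fatty acid and pyruvate metabolism and of PPAR control were listed, of which 135 were found and 98 tested. Averaged over genotypes, 4 rose and 3 fell, beside 7.47% of all tested genes that passed. Their median change was -0.01. In the control legs 3 of the 98 rose and 0 fell, beside 2.8% of all tested genes that passed. In the Myc legs 3 rose and 2 fell, beside 3.89%. In the Myc comparisons and the interaction 0 passed.

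Among regulators, a list joined partners and coregulators of PPAR with other transcription factors, Nr4a3 and Foxo1 among them, and 15 of its genes were tested. Of these, 3 rose in both genotypes, Nr4a3, Ppargc1a and Nrip1. Among all tested genes, 2.8% passed in the control legs and 3.89% in the Myc legs. Foxo1 fell in the averaged comparison, where 7.47% of all tested genes passed. The list was chosen with such results known. Ppargc1a, the coactivator PGC-1 alpha, was at 6.28 to 15.9 CPM in the uncontracted and 24.5 to 71.6 CPM in the contracted legs, with no overlap, and rose by 2.27 ± 0.26 on the log2 scale (edgeR adjusted p = 2.78e-06). Nr4a3, an orphan nuclear receptor, rose by 3.50 ± 0.34 (adjusted p = 2.4e-07). Like Angptl4, it entered the test through the contracted legs, at 1.89 to 10.8 CPM in the uncontracted and 17.2 to 88.5 CPM in the contracted ones. Without the 4 doubtful libraries, with 1 contracted library of each genotype, Ppargc1a was at 1.37 (adjusted p = 0.00285) and Nr4a3 at 2.52 (adjusted p = 1.43e-05). Nrip1, a corepressor of nuclear receptors, rose by 0.94 ± 0.17 (adjusted p = 0.000732), but was at 0.49 without those libraries (adjusted p = 0.562). Foxo1, a transcription factor of fasting, fell by 0.70 ± 0.18 (adjusted p = 0.0155), lost its call without the uncontracted library labelled control 3 (adjusted p = 0.056) or the one labelled Myc 2 (adjusted p = 0.0572), and was at -1.07 without the 4 libraries (adjusted p = 0.0139).

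Of 10 tested further genes of fatty acid transport and activation, 1 rose and 1 fell in the averaged comparison, where 7.47% of all tested genes passed. These were a lipoprotein receptor and the anchor of lipoprotein lipase, while Lpl did not pass. Gpihbp1, which holds the lipase on the capillary wall, was at 36.3, 52.9 and 58.1 CPM in the uncontracted and 27.1, 30.9 and 33.6 CPM in the contracted legs (lowest, median and highest), with no overlap. It fell by 0.71 ± 0.14 on the log2 scale (edgeR adjusted p = 0.0014), and was at -0.65 without the 4 doubtful libraries (adjusted p = 0.212). Vldlr, the very low density lipoprotein receptor, was at 22.9, 29.0 and 45.9 CPM and 35.7, 66.1 and 73.2 CPM, and rose by 0.85 ± 0.21 (adjusted p = 0.0118). Within a genotype, Gpihbp1 passed in the Myc legs (edgeR adjusted p = 0.0359) and not in the control legs (0.0538). Vldlr passed in neither (0.127 and 0.163 in the same order). The contracted libraries numbered 1 lay within the uncontracted range for Vldlr, and without those numbered 2 and 3 its change was 0.15 (adjusted p = 0.974).

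**Figure D5:**
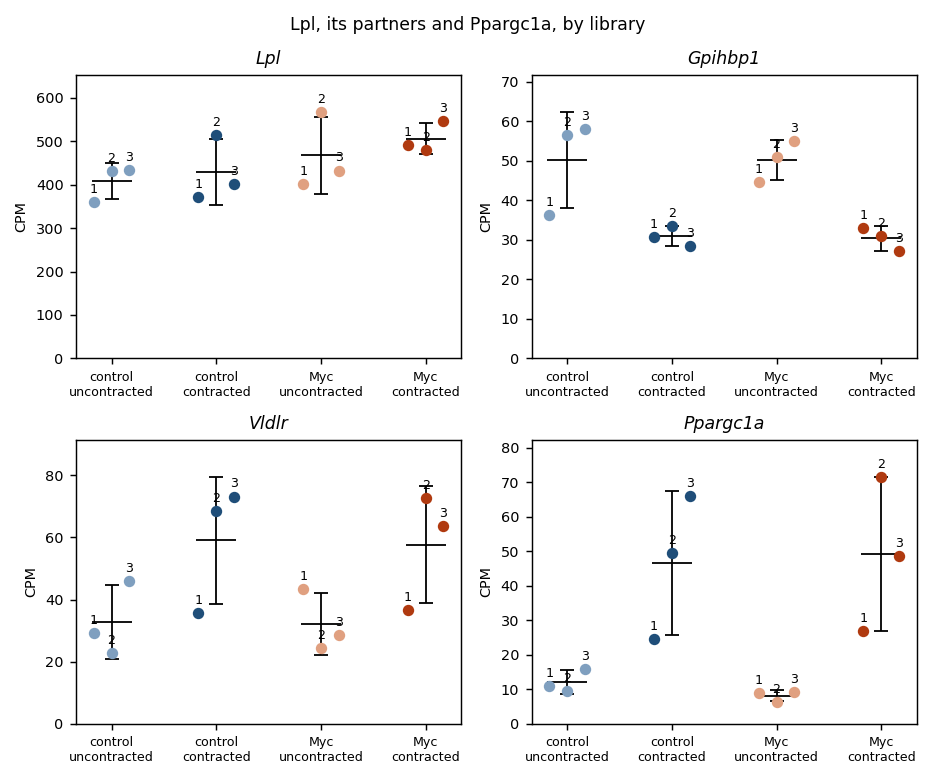
Levels of Lpl, Gpihbp1, Vldlr and Ppargc1a in CPM (y axis, from 0) in the 3 libraries of each group (points, numbered by animal), with the group mean as a line and bars of 1 SD. Lpl overlaps between legs, Gpihbp1 at 27.1 to 33.6 CPM lies below the uncontracted legs, and Ppargc1a lies above them.

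Mcee, which acts on the product of odd-chain oxidation, fell in the Myc legs by 0.62 ± 0.16 (edgeR adjusted p = 0.03), where 3.89% of all tested genes passed. The call was lost under 9 of 21 alternatives, among them DESeq2 (adjusted p = 0.0969). Leaving out single libraries gave adjusted p of 0.00442 to 0.192 (edgeR). Without the 4 doubtful libraries the change was -0.31. Of 11 tested genes of pyruvate dehydrogenase and pyruvate entry, 14 of triglyceride storage and breakdown, 11 of malonyl-CoA and fatty acid synthesis and 4 of ketone body use, 0 passed in any comparison.

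Markers of other cells moved in part with contraction averaged over genotypes, where 7.47% of all tested genes passed. Both tested neutrophil markers, S100a8 and S100a9, rose, and the list summed to 0 to 3.67 CPM in the uncontracted and 4.85 to 67.4 CPM in the contracted legs, with Ly6g, Csf3r and Cxcr2 at 0 reads. Both entered the test only through contracted libraries, where they are high. All 4 tested erythrocyte markers rose (310 to 462 CPM in sum against 399 to 1000 CPM), but 0 did in the control legs alone and 2 in the Myc legs. Of 4 tested macrophage markers Cd68 rose and Csf1r and C1qa fell. Cd68 too entered the test only through contracted libraries, at 1.35 to 5.51 CPM in the uncontracted and 2.10 to 15.0 CPM in the contracted legs. Within a genotype only Csf1r passed in the control legs and only Cd68 in the Myc legs. Of 9 tested endothelial markers 1 fell, Gpihbp1 itself, and the list summed to 239 to 282.5 CPM and 215 to 242 CPM. None of 6 tested adipocyte markers (360.5 to 574 CPM against 362 to 529.5 CPM), 10 markers of slow and oxidative fibres or 5 of fibroblasts passed. The part of other cells in the changes of Angptl4, Ucp3 and Pdk2 was not tested, and in whole muscle fewer cells of a type and less RNA per cell cannot be told apart.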

How the data were processed

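The authors deposited 1 table of read counts per gene, not normalized, for 12 libraries made with a QuantSeq 3' mRNA kit, per the labels' protocols. FastQC 0.11.5, STAR 2.5.2a, SAMtools, HTSeq 0.6.0 and genome build mm10 are named, with no role or order, per the submitters' processing notes. Strand setting, annotation release and filters are not given in the sources used here. Groups came from the titles, which also give animal and leg.

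Counts were fitted with edgeR 4.0.16 in R 4.3.3 (filterByExpr with a minimum count of 10, TMM scaling, 4 group means, quasi-likelihood F test, 2-sided, all 12 libraries). Benjamini-Hochberg adjustment ran over all 6676 genes tested, with a threshold of 0.05. SEs were taken from the size of a change and the root of its F value, so they restate the test. Levels in CPM use the TMM-scaled library totals. Intervals are at 95%, and limits for 0 reads cover counting error only.

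Members and lists were chosen with earlier results of these data known. Members that passed are given by library, others by range with up to 2 examples per role by reads, and further pathway genes where they passed. The counts over the further pathway genes include 1 gene that is not reported here. Pdk4 and Mlycd were named after their values were seen. Alternatives were RLE or no scaling, DESeq2 1.42.0, other filters, the compared groups alone, the animal as a fixed block in edgeR or a random block in limma 3.58.1, and left-out libraries. Same-numbered legs of a genotype are the same animal per the titles. Their deviations correlated at -0.113 to 0.0986, and the consensus correlation was 0.000988. The fits were tested on simulated data. Promoters came from RefSeq (GRCm38.p6), gene positions from GENCODE M21.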

Additional observations from a re-analysis of the deposited data

How the results depend on the processing

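The counts of members that passed with contraction moved under several settings. In the control legs the count was 0, and became 2 with no low-count filter (Angptl4 and Ucp3), 1 with the animal as a fixed replicate block (Ucp3), and 0 to 1 when single libraries were left out. In the Myc legs it was 2, and became 1 with library totals alone, with DESeq2 and with the animal as a random replicate block, 3 (adding Ucp3) with no low-count filter, with the compared groups alone and with the fixed block, 1 to 3 when single libraries were left out, and 0 without the 4 contracted libraries numbered 2 and 3. Averaged over genotypes it was 3, stayed at 2 to 3 when single libraries were left out, and became 1 (Ucp3) without those 4 libraries, a setting that leaves 1 contracted library of each genotype. The interaction called 0 members, and 1 with no low-count filter (Acot2 at 0.99, adjusted p = 0.0345). That setting uses the same reads of Acot2 as the main fit, where the edgeR adjusted p was 0.855, so it is no further support. The comparisons between genotypes called 0 members under every alternative run. One direction reversed: the averaged change of Acot2 was -0.19 without the 4 libraries against 0.21 with them, and neither passed. The cause was not tested.

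Ucp3 passed in the averaged comparison under all 20 alternatives run, and Angptl4 under 19, all but the one without the 4 libraries. Pdk2 lost its averaged call under 10 of 20, among them library totals alone, which gave -0.30 (adjusted p = 0.0548). Depth limits the members with under 200 reads, Angptl4, Pdk4, Etfa, Etfdh, Ppara and Cpt1b.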
